A study of Homo sapiens with 16 samples.

Results

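The expression of 10 secreted cytokine genes was followed through the BJ model, in which a human fibroblast line is taken stepwise from a primary to a metastasizing stage. The genes are IL1A, IL1B, IL6, IL11, IL33, LIF, CSF1, CSF2, CSF3 and CCL2, which are 10 of the 19356 protein-coding genes, and of the 34451 genes in all, to which the deposited transcripts could be matched. They were chosen by name and were selected on their expression in these same libraries, so no p value is given for any of them, and the counts of them that passed the test are a description printed beside the same share over all genes, from which nothing is read. Primary BJ cells carry no added gene. The immortalized line carries hTERT, the catalytic subunit of telomerase, the transformed line carries hTERT and SV40 Large-T, and the metastasizing line carries hTERT, SV40 Large-T and the oncogenic Ras-G12V. Each line was kept for 6 passages either at atmospheric or at 3% oxygen, and 2 libraries, a and b, were made per line and oxygen level from plates run side by side, giving 8 groups and 16 libraries. Each stage is represented by 1 cell line, so the spread between its libraries holds no variation between lines derived independently.

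Levels are given in TPM, a share of all transcripts scaled to a fixed library total, summed over the transcripts of a gene. TPM is scaled by transcript length, so levels of different genes can be set side by side, but it keeps no record of how many reads stand behind a value, and the depth is unknown here. Differences are on the scale of log2(TPM + 0.5), which understates the change of genes near or below 1 TPM, and are given ± SE of a limma fit over all 16 libraries. The fit takes 1 spread per gene over all 8 groups. The SE of a gene is therefore the same in every oxygen comparison and stage step, and is not the spread of the libraries compared. A gene was called in a comparison at an adjusted p under 0.01 and a log2 difference beyond 1, among protein-coding genes whose mean reached 1 TPM in any group of the comparison. Shares of all genes whose libraries did not overlap between the groups compared were counted over the genes tested, on sums of protein-coding transcripts only. The counts of cytokine genes beside these shares used sums of all transcripts and also hold genes under 1 TPM in both groups, so the 2 are not fully alike. For 2 libraries against 2 the smallest two-sided p of an exact permutation test is 0.333. In RNA from a whole plate, fewer cells expressing a gene and less of its RNA in each cell cannot be told apart.

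These cytokines act through a few receptor systems. IL-1α (IL1A) and IL-1β (IL1B) bind the IL-1 receptor and, through MYD88 and the IRAK kinases, activate the transcription factor NF-κB, while IL-33 is an alarmin of the same family that binds IL1RL1. IL-6, IL-11 and LIF share the signalling receptor gp130 (IL6ST) and activate STAT3. CSF1, CSF2 and CSF3 support macrophages, granulocytes with macrophages, and neutrophils, respectively, and CCL2 attracts monocytes. Fibroblasts secrete several of them after IL-1 stimulation or on entering senescence, and NF-κB and C/EBPβ bind the promoters of several.

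In all 16 libraries the 9 fibroblast markers were at 1 TPM or more, and their summed level ranged from 3831 to 20619 TPM. The 8 leukocyte markers summed to between 1.33 and 4.60 TPM in a library, and CD3E and FCGR3A, which define T cells and natural killer cells or macrophages, were listed at 0 in every library. The leukocyte sums were highest in immortalized cells at atmospheric oxygen, at 4.60 and 4.33 TPM, where CD14 reached 3.19 TPM in replicate b. The 5 epithelial markers summed to at most 3.64 TPM and the 3 endothelial markers measured to at most 0.866 TPM, while PECAM1 was not matched. TERT was at 0 in the atmospheric primary libraries and lay between 31.6 and 193 TPM in the 12 libraries of the later stages. CA9, a target of the hypoxia-inducible factors, was 75.9 to 82.8 TPM in immortalized cells at 3% oxygen against 4.55 to 7.73 TPM at atmospheric oxygen, and in the metastasizing line it was 7.13 and 17.8 against 5.42 and 3.12 TPM. It reached 1 TPM in 12 of the 16 libraries, and those below were of primary or transformed cells. The lowest, at 0.231 TPM, was replicate a of the transformed cells at atmospheric oxygen. Replicates a and b differed by more than 2-fold in 13.4% of the genes of at least 1 TPM in metastasizing cells at 3% oxygen, against 2.56% to 5.41% in the other 7 groups. In the fit the oxygen difference of the median gene was 0.08, 0.11, 0.01 and -0.13 in primary, immortalized, transformed and metastasizing cells, and differences of single genes are to be read against these.

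The genes lie on 8 chromosomes of GRCh37. IL1A (chromosome 2, 113531502 to 113542070, minus strand) and IL1B (chromosome 2, 113587328 to 113594393, minus strand) are neighbours with 45257 bases between them. IL6 lies on chromosome 7 (22765503 to 22771621), IL33 on chromosome 9 (6215786 to 6257983), CSF1 on chromosome 1 (110452864 to 110473614) and CSF2 on chromosome 5 (131409482 to 131411863). CSF3 (38171614 to 38174066) and CCL2 (32582293 to 32584227) are both on chromosome 17, IL11 is on chromosome 19 (55875750 to 55881831) and LIF on chromosome 22 (30636442 to 30642748). IL6 overlaps IL6-AS1 and STEAP1B on the other strand, and LIF overlaps LIF-AS1 and LIF-AS2. These overlaps are of whole gene spans, and overlap of exons was not examined. Whether strand was used in the quantification is not given in the sources used here. Reads from any sequence that these 2 genes share with an antisense partner may therefore not have been told apart.

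Promoter windows were taken from RefSeq (GRCh38.p14), from 250 bases before to 50 bases after the start of transcription, and 6 of the 10 genes were matched with 8 windows, each found once in GRCh37. LIF, CSF1, CSF3 and CCL2 were not matched. 4 letter patterns were searched on both strands, and no match overlapped another. GGANNTTCC for NF-κB is in 4.56% of the 35116 promoters of the table and was found for IL6 and CSF2, and TTGCNNAA for C/EBP is in 10.5% and was found for IL1B and IL6. TGANTCA for AP-1 is in 7.71% and was found for IL1A and IL11, and ACGTG, the core of a hypoxia response element, is in 21.4% and was found for IL1A. Neither IL33 window held any of them, and a match describes letters, not a bound site. The bases before the first annotated exon are shown for IL1A, IL1B, IL6 and CSF2, which hold the matches of all 4 patterns, 5′ to 3′ on the strand of the gene, with matches in capitals, at chr2:113542071-113542320, chr2:113594394-113594606, chr7:22766569-22766765 and chr5:131409232-131409481 of GRCh37.
IL1A: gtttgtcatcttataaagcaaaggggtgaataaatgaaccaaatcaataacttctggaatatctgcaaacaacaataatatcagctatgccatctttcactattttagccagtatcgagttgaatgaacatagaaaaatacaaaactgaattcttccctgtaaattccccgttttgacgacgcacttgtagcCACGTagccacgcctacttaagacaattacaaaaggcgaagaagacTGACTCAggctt
IL1B: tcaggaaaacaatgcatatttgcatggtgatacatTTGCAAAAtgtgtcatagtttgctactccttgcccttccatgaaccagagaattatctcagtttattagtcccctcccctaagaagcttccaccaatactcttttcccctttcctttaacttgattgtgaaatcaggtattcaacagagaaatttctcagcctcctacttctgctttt
IL6: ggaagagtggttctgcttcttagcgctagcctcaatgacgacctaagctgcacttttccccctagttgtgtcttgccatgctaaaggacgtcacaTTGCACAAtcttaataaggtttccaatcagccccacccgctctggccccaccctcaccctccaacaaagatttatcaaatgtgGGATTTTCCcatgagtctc
CSF2: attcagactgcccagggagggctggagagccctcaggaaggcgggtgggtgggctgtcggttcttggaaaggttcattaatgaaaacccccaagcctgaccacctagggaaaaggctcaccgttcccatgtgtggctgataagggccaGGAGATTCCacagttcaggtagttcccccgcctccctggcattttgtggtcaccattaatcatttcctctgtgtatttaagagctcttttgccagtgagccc
In IL6 the C/EBP match TTGCACAA lies 155 bases and the NF-κB match GGATTTTCC 72 bases before the start, and in CSF2 the NF-κB match GGAGATTCC lies 102 bases before it. In IL1B the match TTGCAAAA lies 215 bases before the start, and in IL1A the AP-1 match TGACTCA lies 12 bases before it and the match CACGT, which is ACGTG on the other strand, 58 bases before it.

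Among the IL-1 family ligands, IL1B varied most. At atmospheric oxygen its level was 3.17 and 1.41 TPM in primary cells, 589 and 336 TPM in immortalized cells, 1.89 and 3.22 TPM in transformed cells and 5.76 and 6.0025 TPM in metastasizing cells. At 3% oxygen it was 2.19 and 1.22, 36.6 and 28.1, 28.1 and 155, and 186 and 677 TPM in the same order of stages. The immortalized line thus stood alone at atmospheric oxygen, whereas at 3% oxygen the later lines held as much or more, and only the primary libraries of the 2 oxygen levels overlapped. IL1A followed the same course at a lower level. At atmospheric oxygen it was 0.598 and 0.166, 10.8 and 9.05, 0.107 and 0.0774, and 0.216 and 0.394 TPM, and at 3% oxygen 0.343 and 0.173, 2.70 and 1.97, 1.34 and 7.84, and 2.76 and 6.67 TPM. It was above 1 TPM in 8 libraries, which are both immortalized groups and the transformed and metastasizing cells at 3% oxygen. IL33 was low throughout, from 0.380 TPM in a metastasizing library at atmospheric oxygen to 2.88 TPM in one at 3% oxygen. Its libraries at 3% oxygen were above those at atmospheric oxygen in 3 stages, at 2.30 and 2.36 against 1.03 and 0.992 TPM in primary cells, 1.51 and 1.16 against 0.517 and 0.939 TPM in transformed cells and 1.59 and 2.88 against 0.870 and 0.380 TPM in metastasizing cells. In immortalized cells they overlapped, at 1.20 and 0.473 against 0.933 and 0.418 TPM.

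**Figure D1:**
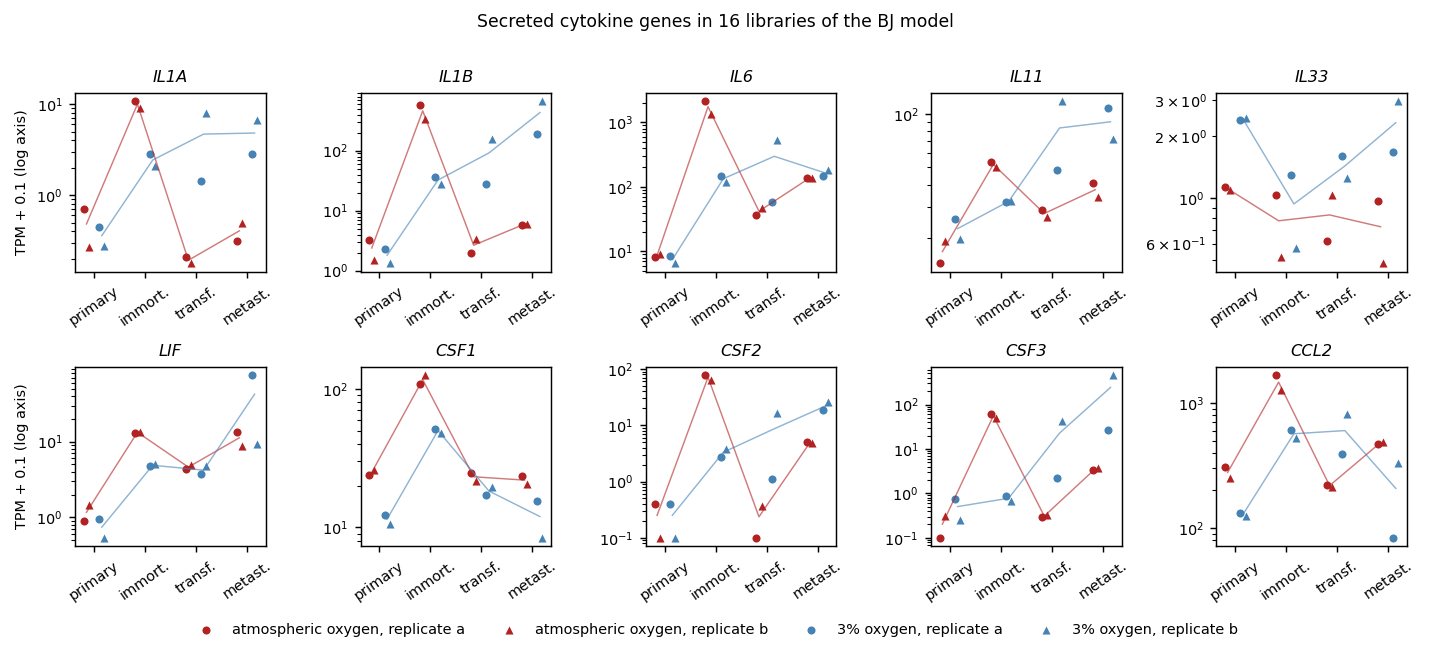
Levels of the 10 cytokine genes in each library, as TPM + 0.1 on a log axis, against the 4 stages. Red marks are atmospheric and blue marks 3% oxygen, circles are replicate a and triangles replicate b, and lines join group means. For IL1A, IL1B, IL6, CSF1, CSF2 and CCL2 the immortalized cells at atmospheric oxygen have the highest group mean, for IL6 at 2146 and 1339 TPM.

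Of the gp130 cytokines, IL6 reached the highest level and IL11 varied least. IL6 at atmospheric oxygen was 8.08 and 9.10 TPM in primary, 2146 and 1339 TPM in immortalized, 37.0 and 46.6 TPM in transformed and 139 and 138 TPM in metastasizing cells. At 3% oxygen it was 8.38 and 6.42, 149 and 118, 58.0 and 536, and 148 and 180.4 TPM. The metastasizing libraries were nearly level between the 2 oxygen levels, and 1 transformed library at 3% oxygen stood far above its replicate. IL11 was 14.3 and 19.1, 53.8 and 49.9, 28.6 and 26.2, and 40.7 and 34.0 TPM at atmospheric oxygen. At 3% oxygen it was 25.4 and 19.6, 31.8 and 32.3, 48.2 and 118, and 108 and 72.3 TPM. It was thus present in every library, lower at 3% oxygen in immortalized cells and higher there in the other 3 stages, with no overlap in any stage. LIF was 0.796 and 1.33, 13.0 and 13.4, 4.26 and 4.75, and 13.5 and 8.76 TPM at atmospheric oxygen, and 0.842 and 0.436, 4.60 and 4.94, 3.60 and 4.60, and 75.5 and 9.19 TPM at 3% oxygen. The level of 75.5 TPM belongs to replicate a of the metastasizing cells, so the highest group mean of LIF rests on a single library.

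Of the colony-stimulating factors, CSF1 was measured in every library, and CSF2 and CSF3 were near 0 in several groups. CSF1 at atmospheric oxygen was 24.0 and 25.8 TPM in primary, 107 and 125 TPM in immortalized, 24.7 and 21.5 TPM in transformed and 23.2 and 20.5 TPM in metastasizing cells. At 3% oxygen it was 12.2 and 10.5, 51.5 and 48.2, 17.0 and 19.4, and 15.4 and 8.33 TPM, below both atmospheric libraries in every stage. It was the only one of the 10 genes that was lower at 3% oxygen in all 4 stages without overlap. CSF2 was 0.299 and 0, 77.6 and 64.6, 0 and 0.272, and 4.92 and 4.69 TPM at atmospheric oxygen, and 0.302 and 0, 2.66 and 3.76, 0.986 and 16.1, and 18.3 and 25.3 TPM at 3% oxygen. CSF3 was 0 and 0.206, 60.3 and 50.4, 0.193 and 0.221, and 3.27 and 3.66 TPM at atmospheric oxygen, and 0.650 and 0.157, 0.776 and 0.575, 2.13 and 43.1, and 26.5 and 458 TPM at 3% oxygen. CSF2 and CSF3 were thus high in immortalized cells at atmospheric oxygen and in metastasizing cells at 3% oxygen, and the transformed cells at 3% oxygen held 1 high and 1 low library.

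CCL2, the chemokine, was the most abundant of the 10 genes in most libraries. At atmospheric oxygen it was 306 and 251 TPM in primary, 1671 and 1268 TPM in immortalized, 222 and 214 TPM in transformed and 472 and 492 TPM in metastasizing cells. At 3% oxygen it was 132 and 125, 609 and 526, 392 and 812, and 83.4 and 331 TPM. It was lower at 3% oxygen in 3 stages and higher in transformed cells, with no overlap in any stage.

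In primary cells 4 of the 10 genes differed between the oxygen levels without overlap, where 66.2% of all genes tested did. CSF1 was lower at 3% oxygen by a log2 difference of -1.10 ± 0.22 and CCL2 by -1.11 ± 0.50, whereas IL33 was higher by 0.91 ± 0.36 and IL11 by 0.42 ± 0.34. The libraries of the 2 oxygen levels overlapped for the other 6 genes. Of the 7 genes that could be tested, CSF1 was called, beside 5.3% of all genes called in that stage, and its call was lost without any of the 4 libraries compared. The median of the 7 was -0.30, against 0.08 for all genes.

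In immortalized cells 9 of the 10 genes were lower at 3% oxygen with no overlap between the libraries, the exception being IL33, and 28.4% of all genes tested were. The log2 difference was -5.57 ± 1.25 for CSF3, -4.28 ± 0.81 for CSF2, -3.77 ± 0.74 for IL1B and -3.67 ± 0.71 for IL6. The mean level of IL1B was 14.3-fold lower and that of IL6 13.1-fold lower. IL1A followed at -1.88 ± 0.58, LIF at -1.38 ± 0.68, CCL2 at -1.36 ± 0.50, CSF1 at -1.21 ± 0.22 and IL11 at -0.68 ± 0.34. CSF3, CSF2, IL1B, IL6 and CSF1 were called, 5 of the 9 tested, where 4.91% of all genes were called. Each of the 5 calls was lost without any of the 4 libraries compared, and that of CSF3 was kept in 4 of the 16 fits without 1 library. The median of the 9 was -1.88 against 0.11 for all genes, which is a description of genes selected on these libraries.

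In transformed cells the direction was the opposite for most of them. IL1B was higher at 3% oxygen by 4.48 ± 0.74, CSF3 by 3.92 ± 1.25, CSF2 by 3.00 ± 0.81 and IL1A by 2.73 ± 0.58. IL6 was higher by 2.08 ± 0.71, IL11 by 1.45 ± 0.34, CCL2 by 1.37 ± 0.50 and IL33 by 0.59 ± 0.36. CSF1 was slightly lower, at -0.33 ± 0.22, and LIF overlapped. The libraries of 8 genes lay higher at 3% oxygen without overlap, as did those of 37.6% of all genes tested. IL1A, IL1B and IL11 were called, 3 of 10 tested beside 7.48% of all genes, and the median was 1.76 against 0.01. The call of IL1B was lost without replicate a at atmospheric oxygen, that of IL1A without either atmospheric library or replicate b at 3% oxygen, and that of IL11 in 11 of the 16 fits without 1 library. Replicate b of the transformed cells at 3% oxygen was over 2-fold above replicate a for IL1A, IL1B, IL6, IL11, CSF2, CSF3 and CCL2. The size of the differences of these genes depended on it. Without replicate b the difference of IL6 was 0.48 and that of IL1B 3.26, and without replicate a that of IL6 was 3.67.

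In metastasizing cells IL1B was higher at 3% oxygen by 5.80 ± 0.74, CSF3 by 4.81 ± 1.25, IL1A by 2.60 ± 0.58 and CSF2 by 2.05 ± 0.81. IL33 was higher by 1.28 ± 0.36 and IL11 by 1.24 ± 0.34. IL6 differed by 0.24 ± 0.71 while its libraries did not overlap, and LIF overlapped. CCL2 was lower at 3% oxygen by -1.53 ± 0.50 and CSF1 by -0.91 ± 0.22. IL1A and IL1B were called, 2 of 10 tested beside 7.66% of all genes, and the median was 1.26 against -0.13. The call of IL1B was kept in all 16 fits without 1 library and that of IL1A in 3 of them. LIF was -0.23 without replicate a at 3% oxygen, against 1.25 ± 0.68 with it.

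**Figure D2:**
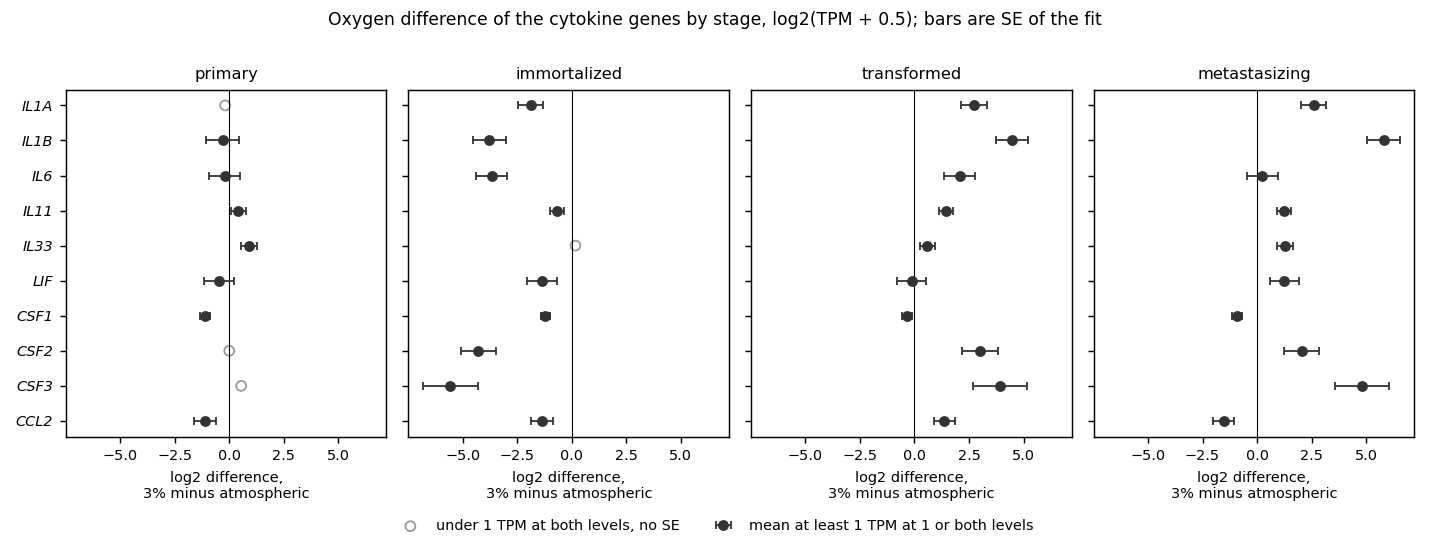
Difference in log2(TPM + 0.5) between 3% and atmospheric oxygen for each cytokine gene, 1 panel per stage. Filled points are fitted values with bars of 1 SE, and open points are genes under 1 TPM at both oxygen levels. Points lie left of 0 in immortalized cells except that of IL33, as for IL1B at -3.77, and right of 0 for 8 genes in transformed cells, as for IL1B at 4.48.

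Each oxygen difference was set against that of the stage before it. From primary to immortalized cells the difference of the oxygen effect was -6.12 ± 1.77 for CSF3, -4.28 ± 1.14 for CSF2, -3.47 ± 1.05 for IL1B and -3.46 ± 1.01 for IL6. The limma fit called 0 of 10 tested, beside 1.86% of all genes, and 5 of the 10 had an unadjusted p under 0.05, beside 22.0% of all genes. From immortalized to transformed cells it was above 0 for all 10 genes, with a median of 3.67 against -0.08 for all genes. It was 9.49 ± 1.77 for CSF3, 8.26 ± 1.05 for IL1B, 7.28 ± 1.14 for CSF2, 5.75 ± 1.01 for IL6, 4.61 ± 0.82 for IL1A and 2.13 ± 0.48 for IL11. These 6 of 10 were called, beside 12.0% of all genes, and the calls of IL11 and CSF3 were lost in 8 and 4 of the 16 fits without 1 library. From transformed to metastasizing cells the largest differences were -2.90 ± 0.70 for CCL2 and -1.84 ± 1.01 for IL6, the fit called 0 of 10 beside 8.47% of all genes, and 1 gene had an unadjusted p under 0.05, beside 38.5% of all genes. These comparisons share the libraries of the stage between them and are not independent of each other.

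Set out by stage, 9 of the 10 genes were higher in immortalized than in primary cells at atmospheric oxygen. IL6 was higher in immortalized cells by 7.55 ± 0.71, IL1B by 7.40 ± 0.74, CSF2 by 6.82 ± 0.81 and CSF3 by 6.55 ± 1.25. IL1A was higher by 3.60 ± 0.58, LIF by 3.15 ± 0.68, CCL2 by 2.39 ± 0.50, CSF1 by 2.20 ± 0.22 and IL11 by 1.62 ± 0.34. IL33 was lower by -0.40 ± 0.36. All except IL33 were called, 9 of 10 tested beside 12.2% of all genes. Those of IL1A, IL1B, IL6, CSF1 and CSF2 were kept in all 16 fits without 1 library, and those of IL11, LIF, CSF3 and CCL2 were lost without any of the 4 libraries compared. At 3% oxygen the same step was 4.09 ± 0.71 for IL6 and 3.92 ± 0.74 for IL1B. It was 2.09 ± 0.22 for CSF1 and 2.14 ± 0.50 for CCL2. These 4 were called of 9 tested, beside 9.23% of all genes, and CSF3 stayed under 1 TPM in all 4 libraries. The call of CSF1 was kept in all 16 fits without 1 library, that of IL6 was lost in 3, that of IL1B in 4 and that of CCL2 in 12 of them.

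From immortalized to transformed cells at atmospheric oxygen the 9 genes other than IL33 were lower with no overlap, as were 32.4% of all genes tested. IL1B differed by -7.22 ± 0.74, CSF2 by -6.84 ± 0.81, CSF3 by -6.30 ± 1.25, IL6 by -5.33 ± 0.71 and IL1A by -4.13 ± 0.58. CCL2 differed by -2.73 ± 0.50 and CSF1 by -2.31 ± 0.22, and these 7 were called of 9 tested, beside 24.3% of all genes. The call of CSF3 was lost without replicate a of either group, and the other 6 were kept in all 16 fits without 1 library. At 3% oxygen this step held no such drop. CSF1 was lower by -1.43 ± 0.22 and was called, 1 of 10 tested beside 16.3% of all genes. CSF3 was higher by 3.19 ± 1.25 and IL11 by 1.22 ± 0.34, and 4 of the 10 genes did not overlap, where 75.4% of all genes tested did not. Without replicate b of the transformed cells at 3% oxygen, IL1A, IL1B, IL6 and CSF2 changed sign in this step, IL6 from 0.41 to -1.19.

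From transformed to metastasizing cells at atmospheric oxygen 8 of the 10 genes were higher without overlap, as were 38.0% of all genes tested, with CSF2 at 3.09 ± 0.81, CSF3 at 2.49 ± 1.25 and IL6 at 1.72 ± 0.71. The fit called 0 of 8 tested, beside 4.12% of all genes, and 3 had an unadjusted p under 0.05, beside 33.5% of all genes. At 3% oxygen CSF3 differed by 3.38 ± 1.25 with overlap, LIF by 2.57 ± 0.68 and IL1B by 2.41 ± 0.74, and CCL2 was lower by -1.76 ± 0.50. The fit called 0 of 10 beside 5.92% of all genes, and 6 had an unadjusted p under 0.05, beside 39.7% of all genes.

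The 2 replicates differed most in the transformed and metastasizing cells at 3% oxygen. In transformed cells at 3% oxygen, 7 of the 10 genes were over 2-fold higher in replicate b than in replicate a, and none was over 2-fold higher in a. Of all genes of at least 1 TPM in that group, 3.51% were over 2-fold higher in b and 1.90% in a. The 7 genes are IL1A, IL1B, IL6, IL11, CSF2, CSF3 and CCL2. In metastasizing cells at 3% oxygen IL1A, IL1B, CSF3 and CCL2 were over 2-fold higher in replicate b and LIF was over 2-fold higher in replicate a. The shares of all genes there were 8.87% and 4.48%. In the other 6 groups, and among genes averaging 1 TPM or more, only IL1B in primary cells at atmospheric oxygen differed by more than 2-fold. The part of the plate, the culture or the library in these differences was not tested.

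**Figure D3:**
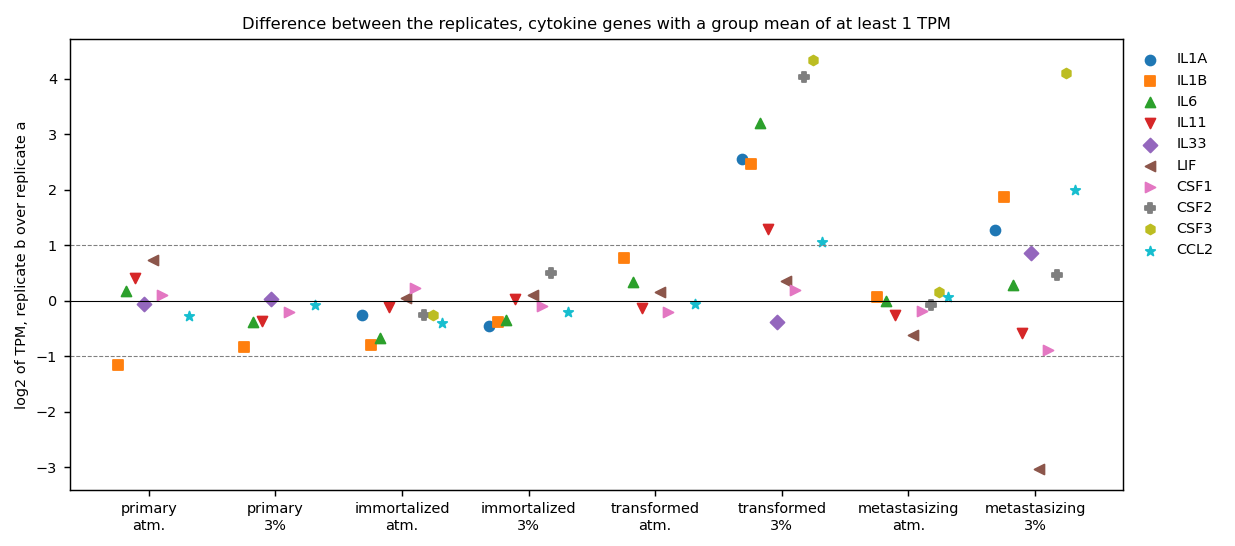
Log2 ratio of replicate b to replicate a for each cytokine gene with a group mean of at least 1 TPM, by group, with dashed lines at 2-fold. In transformed cells at 3% oxygen 7 genes lie above the upper line, and in metastasizing cells at 3% oxygen 4 lie above it and LIF lies below the lower one.

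The summed level of the 10 genes was 3257 and 4729 TPM in immortalized cells at atmospheric oxygen, against 764 and 890.4 TPM at 3% oxygen. It was 309 to 358 TPM in primary and 318 to 319.8 TPM in transformed cells at atmospheric oxygen, and 166 to 184 TPM in primary cells at 3% oxygen. In transformed cells at 3% oxygen the sum was 553 TPM in replicate a and 1714 TPM in replicate b. In metastasizing cells it was 704 and 708 TPM at atmospheric oxygen and 666 and 1771 TPM at 3% oxygen, so that 1 library was below and the other above. The make-up of the sum differed between groups. CCL2 held 67.1% to 85.4% of it in 11 libraries, 47.4% in replicate b of the transformed cells at 3% oxygen and 35.3% and 38.9% in immortalized cells at atmospheric oxygen, where IL6 held 45.4% and 41.1%. In metastasizing cells at 3% oxygen CCL2 held 12.5% and 18.7%, and IL1B held 28.0% and 38.2%. The replicates of that group differed in their other genes, since LIF and IL11 held 11.3% and 16.2% in replicate a against 0.52% and 4.08% in replicate b, and CSF3 held 3.98% against 25.8%.

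**Figure D4:**
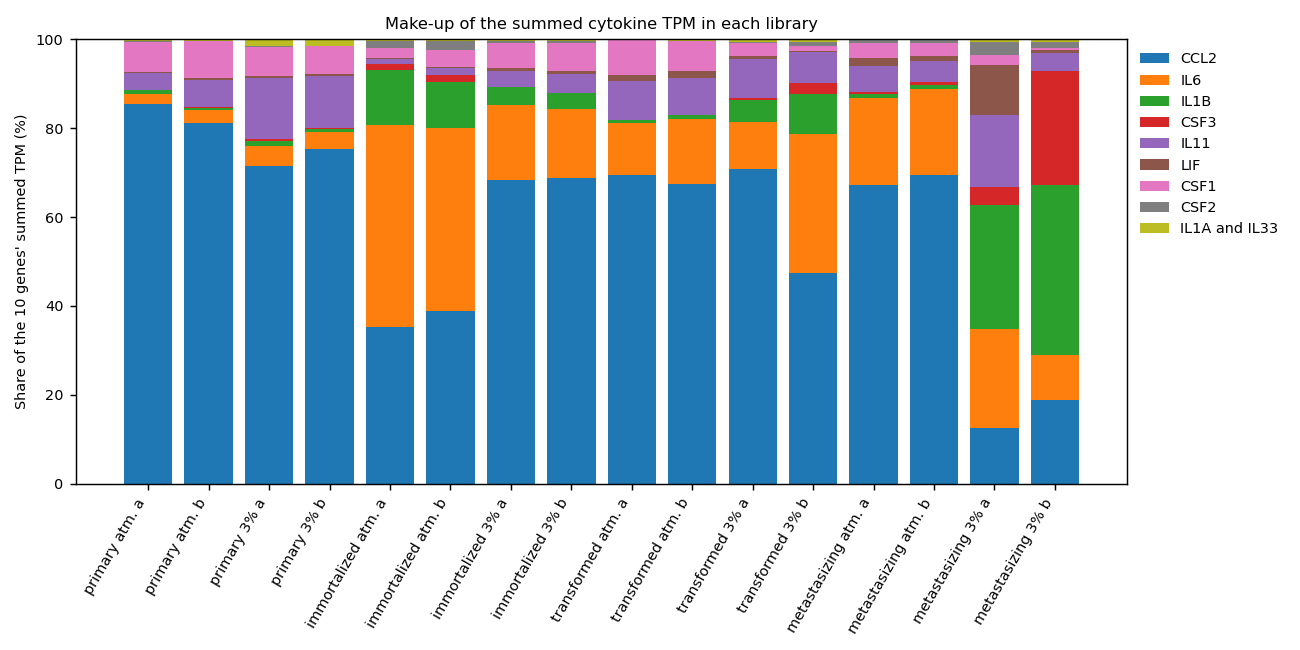
Share of each cytokine gene in the summed TPM of the 10 genes, in percent, for each of the 16 libraries in the order of stage, oxygen level and replicate. CCL2 is the largest part in most bars, IL6 in immortalized cells at atmospheric oxygen, and IL1B in metastasizing cells at 3% oxygen.

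How the sum of a gene divides among its transcripts was not used to choose the genes. IL1A and CSF2 have 1 transcript each. IL1B-201 held 97.6% of the TPM of IL1B over all libraries, CCL2-201 99.0% of CCL2, LIF-201 88.8% of LIF and IL11-201 82.1% of IL11. CSF1-201 held 75.6% of CSF1 and CSF3-204 72.6% of CSF3. IL6 was divided, since IL6-201 held 52.1% and IL6-207 32.9% of its TPM, and the share of IL6-201 ranged from 24.9% to 67.3% between libraries. IL33 differed from the rest. IL33-204, for which the annotation gives no coding sequence, held 70.2% of its TPM and all of it in 7 libraries, and the coding transcripts of IL33 reached at most 1.89 TPM, in a primary library at 3% oxygen. In both metastasizing libraries at 3% oxygen the coding transcripts were at 0.075 and 0.350 TPM, so 95.3% and 87.9% of the summed level of 1.59 and 2.88 TPM there came from IL33-204. In replicate b of both immortalized groups IL33-204 was at 0 and the whole sum was from coding transcripts.

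Over the 8 group means of log2(TPM + 0.5), the genes most like each of the 10 were named among 13146 genes by Pearson's r, as a description over 8 points that come in pairs from the same line. IL1A and IL1B were each among the 2 genes most like the other (r = 0.97). IL6 was most like NFKB2 (r = 0.99), an NF-κB subunit, and RHBDF2 (r = 0.98), which regulates the release of membrane-bound cytokines, and CSF2 was also like RHBDF2 (r = 0.98) and PTPRH (r = 0.96). CSF3 was like CCL20 (r = 0.95), a chemokine, and CTSS (r = 0.95). LIF was like IL32 (r = 0.95) and ROBO4 (r = 0.94), and CSF1 like DCAF8 (r = 0.98) and PYCARD (r = 0.98), the inflammasome adaptor. The other pairs were CLDN1 with IL1A (r = 0.97), SLC6A15 with IL1B (r = 0.96), CNBP and PPTC7 with IL11 (r = 0.97 and 0.96), STK10 and AGAP1 with IL33 (r = 0.97 and 0.96), and ATG14 and NCOA7 with CCL2 (r = 0.97 and 0.96).

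The receptors of these cytokines were measured in the same libraries, and the differences of the receptors and of the partner genes were tested. These lists too were chosen with earlier results of these data known, so their adjusted p-values are not free of selection. Receptors for the IL-1 and gp130 cytokines were present in every library. IL1R1, the IL-1 receptor, ranged from 4.77 to 40.5 TPM, its partner IL1RAP from 7.59 to 21.7 TPM, IL6ST from 23.8 to 188 TPM, IL11RA from 7.06 to 34.0 TPM and LIFR from 3.86 to 16.6 TPM. IL6R, which binds IL-6 itself, was low, from 0.838 to 5.22 TPM. The decoy receptor IL1R2 reached at most 0.492 TPM and IL1RL1, the IL-33 receptor, exceeded 1 TPM only in the 2 transformed libraries at 3% oxygen, at 2.48 and 5.34 TPM. Receptors for the colony-stimulating factors and CCL2 were near 0, with CSF1R at most 1.29 TPM, CSF2RA 2.00 TPM, CSF2RB 0.244 TPM, CSF3R 0.317 TPM and CCR2 0.0707 TPM. These receptors are known from myeloid cells, of whose markers CD14 reached at most 3.19 TPM and CD163 at most 1.63 TPM here. LYZ and ITGAM reached at most 0.308 and 0.322 TPM.

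IL1RN, the secreted antagonist of the IL-1 receptor, was 6.50 and 5.92 TPM in immortalized cells at atmospheric oxygen, 0.440 and 0.629 TPM at 3% oxygen, and at most 0.450 TPM in the other 12 libraries. It fell by 2.70 ± 0.26 on the log2 scale at 3% oxygen in immortalized cells (limma, adjusted p = 7.87e-05), and this call was kept in every fit that left out 1 library. IL1R1 did not pass the test in that stage, with 25.5 and 26.0 against 40.5 and 39.1 TPM, and from immortalized to transformed cells at atmospheric oxygen it fell by 2.25 ± 0.37 (limma, adjusted p = 0.000341).

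Of the IL-1 family partners 2 of 10 tested fell in immortalized cells at 3% oxygen and none of that list rose, where 4.91% of all genes were called. Besides IL1RN this was IRAK2, a kinase downstream of the receptor, which fell by 2.05 ± 0.38 (limma, adjusted p = 0.00309), a call lost when any of the 4 libraries compared was left out (adjusted p up to 0.0279). In transformed cells IL1RL1 rose by 2.27 ± 0.33 at 3% oxygen (limma, adjusted p = 0.000516), and in metastasizing cells IRAK3, an inhibitor of the pathway, rose by 1.58 ± 0.29 (limma, adjusted p = 0.00269, and up to 0.0215 without either atmospheric library). IRAK3 was under 0.1 TPM in all 4 immortalized libraries and between 1.36 and 11.1 TPM in the others.

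Of the 13 gp130 family partners tested, 3 rose at 3% oxygen in transformed cells, where 7.48% of all genes were called. OSMR, the oncostatin M receptor, rose by 1.71 ± 0.12 (limma, adjusted p = 9.89e-06), from 45.0 and 44.5 to 151 and 145 TPM. PIM1, a STAT3 target kinase, rose by 1.88 ± 0.21 (limma, adjusted p = 0.000107), and IL6ST rose by 1.33 ± 0.29 (limma, adjusted p = 0.00509, a call lost without any of the 4 libraries compared, at adjusted p up to 0.0322). In primary cells CTF1, a ligand of the same receptor, fell by 1.24 ± 0.18 (limma, adjusted p = 0.000714). From primary to immortalized cells at atmospheric oxygen IL6ST, OSMR and PIM1 also rose, PIM1 with a call lost without replicate a of either group (adjusted p up to 0.0305), and IL6ST by 2.19 ± 0.29 (limma, adjusted p = 0.000171), while STAT3 and JAK1 were not called in any of these comparisons.

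Among the CSF and CC chemokine partners, at most 5 of 12 could be tested in an oxygen comparison. KITLG, the stem cell factor, fell by 1.35 ± 0.15 at 3% oxygen in transformed cells (limma, adjusted p = 9.99e-05). IL34, the other ligand of the CSF1 receptor, fell by 2.10 ± 0.31 in immortalized cells (limma, adjusted p = 0.000876), from 1.65 and 1.65 TPM to a listed 0 in both libraries.

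Transcription factors and NF-κB feedback genes formed the next list. In immortalized cells at 3% oxygen 2 of 14 tested fell, where 4.91% of all genes were called. NFKBIA, which holds NF-κB in the cytoplasm, fell by 1.57 ± 0.28 (limma, adjusted p = 0.0025), from 210.4 and 183 to 71.1 and 61.1 TPM, and lost its call without any of the 4 libraries compared (adjusted p up to 0.0253). BIRC3 fell by 1.43 ± 0.32 (limma, adjusted p = 0.0082), a call lost with the replicate block (adjusted p = 0.0125) and in 12 of the 16 fits without 1 library. In transformed cells 3 of 14 rose, where 7.48% of all genes were called. ATF3 rose by 1.60 ± 0.39 (limma, adjusted p = 0.00924), CEBPB by 1.38 ± 0.31 (limma, adjusted p = 0.00652) and BIRC3 by 1.34 ± 0.32 (limma, adjusted p = 0.0085). All 3 calls were lost without replicate b at 3% oxygen, at adjusted p of 0.0787, 0.0557 and 0.072, and ATF3 and BIRC3 also with the block, at adjusted p of 0.0118 and 0.0126. From primary to immortalized cells at atmospheric oxygen 6 of 14 rose, where 12.2% of all genes were called. Among the 6, BIRC3 rose by 2.65 ± 0.32 (limma, adjusted p = 9.98e-05), NFKB2 by 2.28 ± 0.21 (limma, adjusted p = 1.56e-05) and NFKBIA by 2.09 ± 0.28 (limma, adjusted p = 0.0002). RELA, the main activating subunit, was between 43.0 and 67.9 TPM in all libraries, and GATA4 reached at most 0.0247 TPM.

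Of the 7 regulators of cytokine mRNA stability, ZC3H12A, the ribonuclease Regnase-1 that cuts cytokine mRNAs such as that of IL6, was highest in the group where IL6 was highest. It was 45.6 and 47.2 TPM in immortalized cells at atmospheric oxygen, 7.13 and 7.22 TPM there at 3% oxygen, 5.78 and 23.0 TPM in transformed and 7.93 and 20.9 TPM in metastasizing cells at 3% oxygen, and between 2.83 and 5.61 TPM in the other 8 libraries. It fell by 2.61 ± 0.53 at 3% oxygen in immortalized cells (limma, adjusted p = 0.00501, and up to 0.0343 without any of the 4 libraries compared). It was the only one of the 7 called in that stage, where 4.91% of all genes were called.

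**Figure D5:**
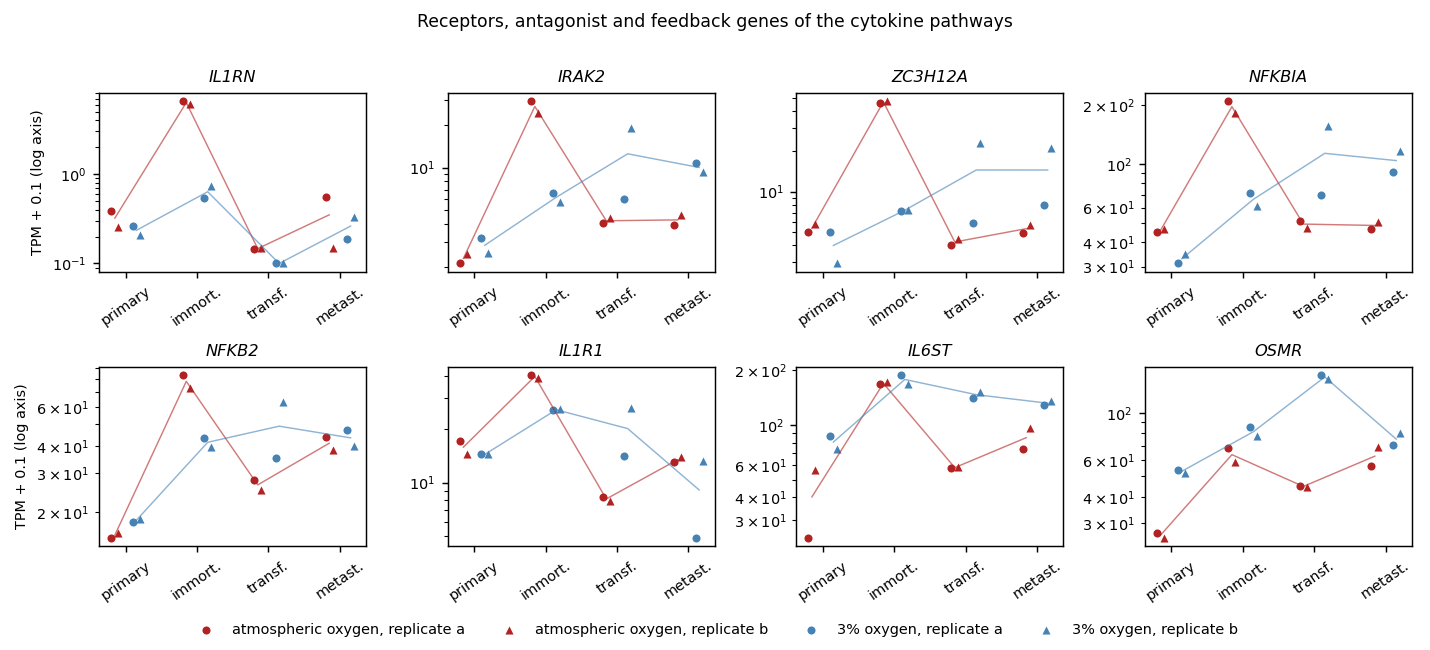
Levels of IL1RN, IRAK2, ZC3H12A, NFKBIA, NFKB2, IL1R1, IL6ST and OSMR in each library, as TPM + 0.1 on a log axis, against stage, with colours for oxygen level and symbols for replicate. IL1RN, IRAK2, ZC3H12A, NFKBIA, NFKB2 and IL1R1 have their highest library in immortalized cells at atmospheric oxygen, and IL6ST in immortalized cells at 3% oxygen. OSMR is highest in transformed cells at 3% oxygen, at 151 and 145 TPM.

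Other secreted genes known from senescent fibroblasts showed both courses. In immortalized cells 9 of 33 tested fell at 3% oxygen and 2 rose, where 4.91% of all genes were called in either direction. CXCL8, the neutrophil chemokine interleukin 8, fell by 5.10 ± 0.75 (limma, adjusted p = 0.000881, and up to 0.0108 without replicate a at atmospheric or b at 3% oxygen), MMP3, a matrix metalloproteinase, by 4.88 ± 0.33 (limma, adjusted p = 1.59e-05) and CXCL1 by 4.41 ± 0.91 (limma, adjusted p = 0.00536, and up to 0.0412 without any of the 4 libraries compared). In transformed cells 7 of 31 rose and 2 fell, where 7.48% of all genes were called. CXCL8 was higher by 4.02 ± 0.75 (limma, adjusted p = 0.00225) and CXCL2 by 2.93 ± 0.55 (limma, adjusted p = 0.00233). Both calls were lost without either atmospheric library, at adjusted p up to 0.0183 and 0.0211, that of CXCL2 also without replicate b at 3% oxygen. STC1 rose there by 3.50 ± 0.59 (limma, adjusted p = 0.00135, and up to 0.013 without either atmospheric library or replicate b at 3% oxygen). In metastasizing cells 7 of 31 rose and 2 fell, where 7.66% of all genes were called. They were led by MMP1, an interstitial collagenase, which rose by 5.42 ± 0.34 (limma, adjusted p = 4.77e-06) from 107 and 112 to 3467 and 6422 TPM.

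Markers of senescence and the cell cycle had other courses. CDKN2A, which encodes the inhibitor p16, was 0.132 and 0 TPM in immortalized cells at atmospheric oxygen, where most of the cytokines were highest, and listed at 0 in both libraries at 3% oxygen, against 4.89 to 8.30 TPM in primary cells at atmospheric oxygen. In the transformed and metastasizing lines, which carry SV40 Large-T, it was 74.9 to 151 TPM. CDKN2B was likewise at most 0.0149 TPM in immortalized cells and reached 23.9 TPM in metastasizing cells at atmospheric oxygen. CDKN1A, which encodes the inhibitor p21, was 237 and 282 TPM in immortalized cells at atmospheric oxygen and 231 and 266 TPM in primary cells. LMNB1, the lamin that is lost in senescence, was 40.7 and 49.5 TPM in immortalized cells at atmospheric oxygen and rose by 1.57 ± 0.12 at 3% oxygen (limma, adjusted p = 1.97e-05), as did CCNA2 by 1.03 ± 0.13 (limma, adjusted p = 0.000438, a call lost on size without replicate a at either oxygen level) and MKI67 by 1.11 ± 0.24 (limma, adjusted p = 0.00685, and up to 0.0682 in the 8 fits without 1 library that ended the call). Of the other genes of this list HMGB1 was 359 and 347 TPM there at atmospheric and 618 and 640.4 TPM at 3% oxygen, HMGB2 203 and 233 against 398 and 391 TPM, TOP2A 111 and 125 against 219.7 and 197 TPM, E2F1 15.4 and 20.8 against 22.9 and 21.3 TPM, and GLB1 353 and 152 against 111 and 597 TPM. LMNB1, HMGB1, HMGB2, MKI67, CCNA2, TOP2A and E2F1 each had their lowest library of the 16 in immortalized cells at atmospheric oxygen, and CDKN1A its highest. The markers thus went in both directions, and the 10 genes are called here by their names and not by a programme.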

How the data were processed

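The authors quantified strand-specific RNA-seq reads per transcript and deposited TPM values, and the submitters' processing notes name kallisto 0.42.1 and the build GRCh37. Strand use and the transcript release are not given in the sources used here. Of 180253 transcripts, 151453 were matched to GENCODE 44 (lifted to GRCh37) by identifier and summed per gene, and the 28800 others were left out, so that 88.2% to 90.1% of each library's TPM was used. TPM holds no read counts, so limma 3.58.1 in R 4.3.3 was run on log2(TPM + 0.5) with Benjamini-Hochberg adjustment. The fit had 8 group means, a variance trend over the mean level and 8 residual degrees of freedom. It was also run on simulated data with 1 spread per gene in all groups and changes added only between the oxygen levels of primary cells. That simulation cannot show how the fit behaves where the spread differs between groups. Differences of oxygen effects were contrasts of the same fit. Figures and sums used Python 3.11.15. Genes named are the 10 cytokine genes, their receptors with IL1RN, the whole senescence and cell cycle list, up to 3 called genes with the largest change per other list and comparison, the 2 genes most like each cytokine gene, CA9 and TERT. RELA, GATA4, STAT3, JAK1 and a few values beside these were added after their values were seen. The cytokine genes and all lists were chosen with earlier results of these data known. The libraries of a group are plates of 1 line, so p-values measure only the spread between plates, which may be technical. Alternatives covered the pseudocount, filter, scaling, samples fitted, block, trend, weights, threshold, gene types and each left-out library.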

Additional observations from a re-analysis of the deposited data

Results flagged for a closer look

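Oxygen effects that differed between neighbouring stages are listed here, as differences on the log2 scale of the later minus the earlier stage. Other secreted genes and the senescence and cell cycle markers are only counted. For the cytokine genes no test is given, since they were selected on these libraries, although 6 of them passed the threshold of the fit from immortalized to transformed cells. They are listed because all libraries of the stages moved in opposite directions. These were IL11 at -1.11 from primary to immortalized cells, and IL1A at 4.61, IL1B at 8.26, IL6 at 5.75, IL11 at 2.13, CSF2 at 7.28, CSF3 at 9.49 and CCL2 at 2.73 from immortalized to transformed cells. From transformed to metastasizing cells it was CCL2 at -2.90.

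Over all pathway lists 9 of 96, 33 of 95 and 15 of 90 genes tested were called for the 3 differences, in the order of the stages. Of all genes 1.86%, 12.0% and 8.47% were called. Other secreted genes held 6, 16 and 6 of these calls and senescence and cell cycle markers 2, 3 and 1, which are not named here. Named below are the remaining partner genes, for which the difference itself passed the test in the limma fit. From primary to immortalized cells this was IL1RN, at -2.52 (limma, adjusted p = 0.00287, and up to 0.0185 in 7 of the 16 fits without 1 library). From immortalized to transformed cells the values above 0 were IL1RN 2.57, IL1RL1 2.38, CASP1 2.17, IRAK2 3.32, OSMR 1.35, PIM1 2.71, CCL20 4.08, NFKB2 1.73, NFKBIA 2.64, BIRC3 2.77, CEBPB 2.51 and ZC3H12A 4.00. Those below 0 were KITLG at -1.94 and HNRNPD, an mRNA-binding protein, at -1.24. The calls of CASP1, IL1RL1, CCL20 and ZC3H12A were lost in 13, 4, 5 and 5 of the fits without 1 library (limma, adjusted p up to 0.0333, 0.015, 0.0272 and 0.0116), and that of CASP1 with the replicate block (limma, adjusted p = 0.0105).

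From transformed to metastasizing cells the values were IL1RL1 -2.16, CASP1 -2.26, OSMR -1.44, PIM1 -2.79, ATF3 -2.54 and ZFP36L1 -1.18, and above 0 KITLG 2.31 and FOSL1 1.24. The calls of OSMR, PIM1 and KITLG were kept in every fit without 1 library, and the other 5 were lost in 6 to 14 of them. With the block IL1RL1 and CASP1 were lost (limma, adjusted p = 0.0108 and 0.0115).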

How the results depend on the processing

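The depth behind these TPM values is unknown, each group has 2 libraries, and a library left alone in its group was assumed to vary like the others. Counts here are calls, in which a gene counts once for each comparison. Over the 4 oxygen comparisons pathway genes had 56 calls, 34 with no filter on low values and 19 when only the groups compared were fitted. Without the filter more genes are tested. The smaller fits hold fewer libraries and take the spread from these alone. What lowered the counts was not tested. Over the 3 differences of the oxygen effect they had 57 calls, 36 with no filter, and 34 to 77 without 1 library. Over the 4 oxygen comparisons the cytokine genes had 11 calls, 3 with no filter, 4 with only the groups compared, 19 at an adjusted p under 0.05, and 4 to 18 without 1 library. Over the 6 stage steps there were 152 calls of pathway and 21 of cytokine genes, 133 to 180 and 15 to 30 without 1 library. No called value reversed. Of the pathway calls, 20 of 56, 101 of 152 and 29 of 57 were kept in every fit without 1 library. Cytokine differences that were not called changed sign in 30 cases, 27 of them without 1 library. Median-ratio scaling moved the oxygen difference of the median gene to -0.04, -0.03, 0.02 and -0.01.

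Same-lettered libraries correlated in their deviations from the group means at between -0.16 and 0.23, so the letters were not taken to pair the samples. With the replicate block there were 51, 150 and 52 calls of pathway genes over the oxygen comparisons, steps and differences, and 9 and 21 calls of cytokine genes over the oxygen comparisons and steps.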
